A study of Mus musculus with 6 samples.

Results

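The genes described here are the long noncoding RNA genes that were detected in bone marrow neutrophils of WT and PGRN KO (progranulin knockout) mice. They were chosen by their annotation as lincRNA (intergenic) or antisense, by a place on chromosomes 1 to 19 and by a mean FPKM of at least 1 over all 6 libraries. FPKM is the number of sequenced fragments of a gene, scaled by its transcript length and by the size of the library. Of 54532 genes in the table, 7695 carried such an annotation on these chromosomes, 2538 of them were above 0 in at least 1 library, and 245 reached the level asked for. Of these 245 genes, 132 were lincRNA and 113 were antisense genes. Because the level was part of the choice, it is given below only as a description.

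The cells came from the marrow of C57BL/6J mice, WT or lacking progranulin (gene Grn), and were isolated with beads against Ly-6G. RNA was extracted from all 6 cultures after 6 h with live Candida albicans. The WT libraries (replicates 1 to 3) are titled as controls, but they were challenged with the yeast like the PGRN KO libraries (replicates 4 to 6), so no unstimulated state was measured. The multiplicity of infection is 1:1 in the labels and 1:10 in the paper. The 2 genotypes came from different suppliers. The sources used here give neither the age of the mice nor the number behind each culture, so p-values measure the spread between these cultures, which may be technical. The library kit selects polyadenylated RNA and does not mark the strand, and no strand setting of the counting was found. Reads from exons shared by a gene and its antisense partner therefore cannot be told apart.

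Long noncoding RNAs are transcripts that hold no long open reading frame, and many are spliced and polyadenylated much like messenger RNAs. Some act on chromatin or on neighbouring genes, some build nuclear bodies or carry microRNAs and small nucleolar RNAs in their introns or exons, and for most no function is known. In myeloid cells several are switched on by inflammatory stimuli together with the protein-coding genes around them, which is why each gene is set here beside its nearest protein-coding gene.

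Grn, the targeted gene, stood at 168, 161 and 166 FPKM in the WT libraries and at 0.242, 0.206 and 0.747 FPKM in the PGRN KO libraries, so every library matched its label. Depth was 17290604 to 17799798 fragments on genes for WT and 17087344 to 18821091 for PGRN KO. The neutrophil markers were abundant in both genotypes, with Ly6g at 49.9 ± 2.63 FPKM for WT and 45.6 ± 6.79 for PGRN KO (SD, n = 3 each). Of 10 neutrophil genes 1 was higher and 2 were lower in PGRN KO. Markers of other cells moved with genotype. The summed FPKM of 5 promyelocyte genes was 129 to 144 for WT and 609 to 670 for PGRN KO, with 5 of 5 higher. The sum of 6 B and plasma cell genes was 23.3 to 25.5 for WT and 66.8 to 82.2 for PGRN KO, with 3 of 3 tested higher and Pax5 at 0. For 5 basophil and mast cell genes the sums were 2.01 to 2.44 and 10.9 to 12.4, with 4 of 5 higher, and for 5 genes of dividing cells 64.9 to 68.8 and 86.8 to 94.2, with 4 of 5 higher. Of 6 monocyte and macrophage genes 1 was higher and 3 were lower, and their sums were 525 to 531 and 550 to 698. The erythroid sums were 0.557 to 1.56 and 3.64 to 3.79, with 2 of 2 tested genes higher. Among 6 T and NK cell genes Cd3e and Cd3g were at 0 and only Nkg7 could be tested, which was higher, and the sums were 2.35 to 2.92 and 7.43 to 8.4. The part of these shifts in the differences reported below was not tested. In such bulk libraries fewer cells of a type and less RNA per cell cannot be told apart.

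Long noncoding RNAs took up a small part of the transcriptome. Together the 245 genes held 0.361% of all fragments, from 0.332 to 0.348% in the WT libraries and 0.402, 0.402 and 0.342% in PGRN KO replicates 4, 5 and 6. Neat1 alone supplied 29.8% of those fragments, and without it the share was 0.247 to 0.261% in every library, with overlap between genotypes. The median gene of the group had a mean of 2.25 FPKM and 306 fragments over the 6 libraries, against 6.71 FPKM and 3322 fragments for the 8002 protein-coding genes with a mean of at least 1. Replicates of one genotype varied by a median coefficient of variation of 15.6% for the long noncoding genes and 6.58% for those protein-coding genes. Between 1 and 2 FPKM lay 114 of the 245 genes and 30 stood at 10 FPKM or more.

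The most abundant was 4833407H14Rik (chr19:53460631-53462723, positions on GRCm38), an intergenic gene with a mean of 84.8 FPKM, followed by Mir142hg, Gm13822, Neat1, Gm36161, AC140186.1, Mirt2, Gm26532, Gm10076 and Gm36551. Of these 10, 3 differed between genotypes. 4833407H14Rik was at 96.4, 98.6 and 104 FPKM for WT and 66.0, 70.5 and 74.1 for PGRN KO, and Mirt2, described as an inducible brake on Toll-like receptor signalling, was at 57.1, 57.4 and 58.4 FPKM for WT and 37.1, 42.3 and 37.3 for PGRN KO. In both genes the 2 genotypes were well apart. The adjusted p was 0.00225 for 4833407H14Rik (log2 fold change -0.50 ± 0.05, SE) and 0.00198 for Mirt2 (-0.56 ± 0.06). Gm36551 was higher in PGRN KO (log2 fold change 0.42 ± 0.10, adjusted p = 0.034), a call kept only without PGRN KO replicate 4 when single libraries were left out. Exons of 4833407H14Rik lie to 67.5% within exons of Mirt1, which runs on the other strand, so the values of this pair are not independent. Of its transcript stretches of 50 bases, Mirt2 shares 24.0% with overlapping genes. For Gm36551 it is 19.9% with overlapping genes and 17.1% with other loci. Gm10076 ranged from 6.23 to 53.5 FPKM within WT and from 12.7 to 50.5 within PGRN KO, the widest spread of the 10, and 69.8% of its stretches of 50 bases also occur in transcripts of other loci, most often of the ribosomal protein gene Rpl41. For Gm36161 this share is 64.9%, with 70 other genes, so the levels of both are uncertain. RefSeq lists Gm10076 as a pseudogene.

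**Figure D1:**
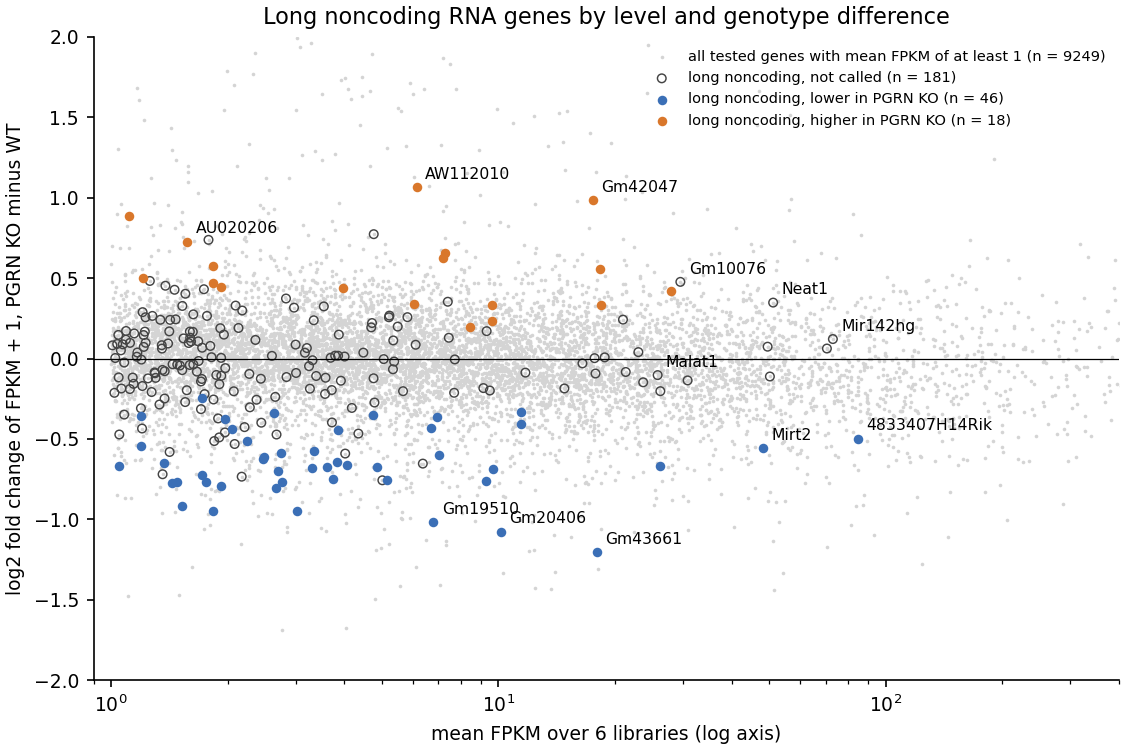
Each point is a gene, with its mean FPKM over 6 libraries on a log axis and its log2 fold change of FPKM + 1 (PGRN KO minus WT) on the vertical axis. Grey points are all 9249 tested genes whose mean reached 1 FPKM (those beyond the axes are not drawn), open circles the 181 long noncoding RNA genes that were not called, and filled circles the 46 called lower (blue) and 18 called higher (orange).

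The central comparison asked which long noncoding RNAs differed between PGRN KO and WT neutrophils after the fungal challenge. Of the 245 genes, 64 (26.1%) passed an adjusted p of 0.05, and 46 of them were lower and 18 higher in PGRN KO. Values were compared as log2(FPKM + 1) with limma, adjusted over all 14807 genes whose mean reached 0.1 FPKM. Over those 14807 genes 17.9% were called, 7.94% higher and 9.95% lower. The long noncoding genes were all at 1 FPKM or more, and over the 9249 genes at that level 25.6% were called (11.1% higher and 14.5% lower), so the share of long noncoding genes called was near this background, with 7.35% higher and 18.8% lower. Their median log2 fold change was -0.0719, against 0.00255 over all tested genes. It changed sign to 0.0209, against 0.0668, when plain totals of fragments set the scale (0.0235 with voom, which used the same totals). At least 1 FPKM in both genotypes was reached by 217 of the 245 genes, of which 53 were called, 38 lower and 15 higher. The values of all 3 WT libraries lay on one side of all 3 PGRN KO libraries in 101 genes (41.2%), where this held for 47.5% of all genes with a mean of at least 1.

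The balance of higher and lower calls differed when plain totals set the scale. With median-of-ratios scaling the same 64 long noncoding genes were called, and with quantile normalization 61 of them and 1 other, with 0 signs changed in either. Median-of-ratios scaling left the median log2 fold change over all tested genes at 0.00255, as in the deposited scaling. It is therefore no separate check of the balance. Plain totals of fragments, in place of the library sizes behind the deposited FPKM values, raise PGRN KO by 0.12 (log2) against WT. Scaled to plain totals, 29 of the long noncoding genes were higher and 35 lower, and of all genes with a mean of at least 1 it was 1922 higher and 823 lower. Lower calls thus made up 71.9% of the calls among long noncoding genes under the deposited scaling and 54.7% under plain totals, against 56.7% and 30.0% for all genes with a mean of at least 1. With any 1 library left out, 35 to 47 of the genes were called.

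By class, 41 of 132 lincRNA genes were called (14 higher, 27 lower, median log2 fold change -0.0454) and 23 of 113 antisense genes (4 higher, 19 lower, median -0.0897). Exons of 147 genes share no base with an exon of another gene, and 38 of these were called, 11 higher and 27 lower. The other 98 share bases with another gene's exons, and 26 of them were called, 7 higher and 19 lower. Beside these counts, 25.6% of all genes with a mean of at least 1 FPKM were called. Differences between these classes were not tested. Called changes were mostly moderate. They reached from -1.20 to 1.07 on the log2(FPKM + 1) scale, with 4 of at least 1 in size and 22 under 0.5. This scale understates the change of genes at low FPKM, so ratios of the mean FPKM are given as well.

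On the log2(FPKM + 1) scale the lowest of the long noncoding RNAs was Gm43661, an intergenic gene (chr5:124035201-124052352) whose nearest coding gene is Vps37b, a subunit of the ESCRT-I sorting complex, 2931 bases away on the same strand. Gm43661 was at 24.6, 24.8 and 26.8 FPKM for WT and at 10.1, 10.1 and 11.2 FPKM for PGRN KO. All 3 PGRN KO libraries were far below every WT library, at 0.412 times the WT mean (log2 fold change -1.20 ± 0.06, adjusted p = 0.000142). Vps37b fell as well, from 69.3, 68.6 and 66.1 FPKM to 51.0, 42.6 and 45.4, which is 0.681 times the WT mean (adjusted p = 0.00362). The fall of Gm43661 exceeded that of Vps37b by 0.66 ± 0.11 on the log2 scale (limma on the difference within each library, adjusted p = 0.0115).

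Gm20406 (chr8:121806415-121807369) overlaps Klhdc4, a gene for a kelch-repeat protein, on the opposite strand. It stood at 12.9, 16.7 and 12.8 FPKM for WT and 5.83, 7.03 and 5.65 for PGRN KO (ratio 0.435, adjusted p = 0.00231), and 22% of its exon bases lie in exons of other genes. Klhdc4 was also lower, at 57.1 ± 3.23 FPKM for WT and 41.0 ± 2.38 for PGRN KO (SD, n = 3 each, adjusted p = 0.00437).

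Gm19510 (chr15:59788417-59794959) lies 131318 bases from Trib1, which encodes a pseudokinase that directs C/EBP alpha to degradation. The gene was at 9.05, 8.83 and 10.4 FPKM for WT and 4.64, 3.82 and 4.02 for PGRN KO (ratio 0.441, adjusted p = 0.000936). Trib1 moved from 72.2 ± 1.19 to 47.8 ± 3.86 FPKM (adjusted p = 0.00207). In both genes no PGRN KO library reached the lowest WT library.

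Gm20511 overlaps Fmnl1, a formin that builds actin filaments, 0.76 Mb from Grn itself. It was at 2.97, 2.76 and 2.43 FPKM for WT and 1.35, 0.604 and 0.892 for PGRN KO (ratio 0.349, adjusted p = 0.0073), on 63 and 24 fragments in all, with 26.3% of its exon bases in exons of other genes. Fmnl1 fell from 112 ± 4.83 to 80.9 ± 8.29 FPKM (adjusted p = 0.01). The 4 other long noncoding genes within 10 Mb of Grn did not pass the test. They were Gm11707, Gm11592, Gm11696 and Gm11520, with log2 fold changes of -0.07, -0.72, -0.09 and 0.05.

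Of the remaining 6 most lowered genes, Gm13571, antisense to the endocytic receptor gene Ly75, was at 2.09, 2.13 and 2.69 FPKM for WT and 0.813, 0.887 and 0.541 for PGRN KO (adjusted p = 0.00314), and Ly75 itself was at 11.2 ± 0.597 and 10.0 ± 0.815 FPKM (adjusted p = 0.199). Kdm6bos, antisense to the histone H3K27 demethylase gene Kdm6b and with 34.0% of its exon bases in exons of other genes, was at 2.45, 2.64 and 2.99 FPKM for WT and 1.33, 1.18 and 0.908 for PGRN KO (adjusted p = 0.00361), and Kdm6b was at 44.2 ± 1.6 and 35.9 ± 6.99 FPKM (adjusted p = 0.165). D630024D03Rik, whose nearest coding gene encodes the translation regulator Cpeb4, was at 2.59, 2.14 and 2.68 FPKM for WT and 1.18, 0.773 and 1.17 for PGRN KO (adjusted p = 0.00566). Gm39469, Gm15340 and Gm44659 had PGRN KO means of 0.409, 0.455 and 0.378 times the WT means. No library of one genotype entered the range of the other in any of these 6 genes.

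**Figure D2:**
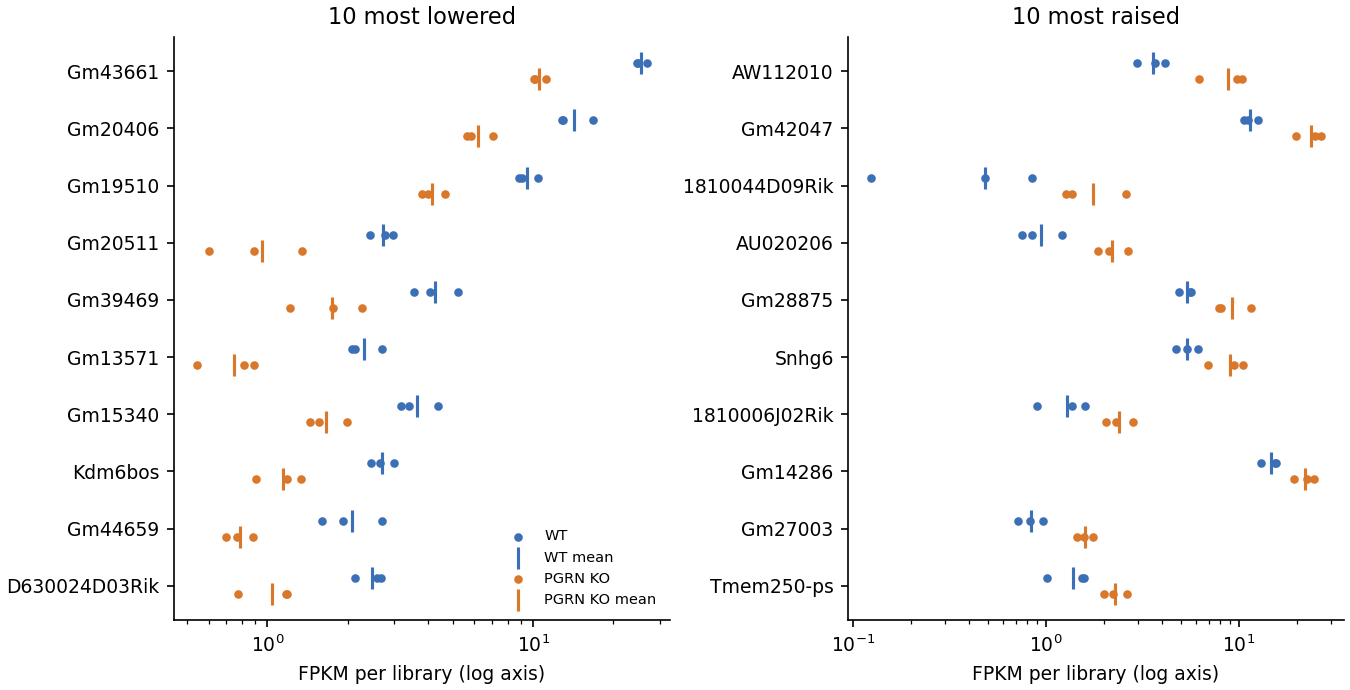
FPKM of each library on a log axis for the 10 called genes that fell most (left) and the 10 that rose most (right), with WT in blue, PGRN KO in orange and vertical ticks at the genotype means. The 2 genotypes do not overlap in any of the 20 genes, which was a condition of the choice.

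Among the 18 genes that were higher in PGRN KO, AW112010 (chr19:11047617-11050566) had the highest value on the log2(FPKM + 1) scale, while 1810044D09Rik, at lower FPKM, had the higher ratio of means. AW112010 is an intergenic gene induced by inflammatory stimuli in myeloid cells, whose transcript has been described to encode a protein from an unconventional reading frame. It was at 3.67, 4.13 and 2.96 FPKM for WT and 6.18, 10.3 and 9.71 for PGRN KO, a ratio of 2.44 (log2 fold change 1.07 ± 0.19, adjusted p = 0.0112). Its nearest coding gene, Ms4a8a, was too low to be tested.

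Gm42047 (chr8:121833247-121841178), which lies on the same stretch of chromosome 8 as the lowered Gm20406, was at 11.1, 10.6 and 12.5 FPKM for WT and 24.8, 26.6 and 19.6 for PGRN KO (ratio 2.08, adjusted p = 0.00302). Of its stretches of 50 bases, 64.8% also occur in transcripts of other loci, so where its reads come from is uncertain. AU020206 (chr7:75769038-75782099) was at 0.849, 0.752 and 1.21 FPKM for WT and 2.11, 2.64 and 1.87 for PGRN KO (ratio 2.35, adjusted p = 0.0107), while its neighbour Akap13, which encodes a kinase anchoring protein, was at 6.28 ± 0.375 and 5.88 ± 0.497 FPKM (adjusted p = 0.496). The difference between the 2 genes was 0.81 ± 0.14 on the log2 scale (adjusted p = 0.0104).

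Gm28875 (chr12:104925501-104926689) went against its neighbour, though its own call was lost without WT replicate 1, 2 or 3. It was at 4.85, 5.60 and 5.65 FPKM for WT and 8.06, 11.5 and 7.92 for PGRN KO (adjusted p = 0.0209), and Syne3, which encodes the nuclear envelope protein nesprin-3 and lies 3244 bases away on the same strand, was at 5.21, 5.98 and 4.97 FPKM for WT and 4.43, 3.48 and 3.93 for PGRN KO (adjusted p = 0.0406). The pair differed by 1.03 ± 0.19 on the log2 scale (adjusted p = 0.0148).

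The other 6 of the most raised genes were 1810044D09Rik, Snhg6, 1810006J02Rik, Gm14286, Gm27003 and Tmem250-ps, with PGRN KO means 3.60, 1.66, 1.86, 1.51, 1.91 and 1.66 times the WT means. 1810044D09Rik rested on 12 fragments for WT and 47 for PGRN KO, and it lost its call when any 1 library was left out. The same was true of Tmem250-ps, a gene that RefSeq lists as protein coding. Gm14286, the most abundant of these 6, was at 15.3, 12.9 and 15.5 FPKM for WT and 24.4, 22.4 and 19.2 for PGRN KO (adjusted p = 0.0139), 10893 bases from Blcap, which was not called. The call of Gm14286 was lost without WT replicate 2 or PGRN KO replicate 5, and that of 1810006J02Rik without any library but WT replicate 1.

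Promoter sequences from RefSeq (GRCm38.p6, 250 bases before to 50 after the start site) were matched for 125 of the 245 genes, including 36 of those called. The RefSeq start site was not always that of the gene as measured. It lay 54967 bases away for Gm31718 and 3546 for Gm20234, which each hold an AP-1 match, and 9856 for Mir155hg. Counts of matches below include such promoters. They are shown for 3 genes that fell and 1 that rose, to let the reader compare start regions of RNAs that moved with genotype. These are examples that all hold matches, not a representative draw. The promoters of AW112010, raised most on the log2(FPKM + 1) scale, and of D630024D03Rik, among the most lowered, hold 0 matches to the motifs named next. Capitals mark matches, on either strand, to 7 motifs. These are the TATA box TATAAA, the CCAAT box CCAAT, the GC box GGGCGG, the AP-1 site TGANTCA, the PU.1 site GAGGAAGT, the C/EBP site TTGCGNAA and the NF-kB site GGGANTTTC. The regions are chr15:59794910-59795209 (minus strand) for Gm19510, chr14:103012625-103012924 (plus) for Gm34643, chr19:53460372-53460671 (plus) for 4833407H14Rik and chr7:75782071-75782370 (minus) for AU020206.
Gm19510: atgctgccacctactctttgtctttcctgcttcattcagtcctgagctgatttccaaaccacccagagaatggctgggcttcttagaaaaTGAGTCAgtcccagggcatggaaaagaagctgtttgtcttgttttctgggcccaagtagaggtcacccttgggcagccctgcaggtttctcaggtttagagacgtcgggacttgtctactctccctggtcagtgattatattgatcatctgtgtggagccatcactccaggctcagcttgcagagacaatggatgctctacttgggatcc
Gm34643: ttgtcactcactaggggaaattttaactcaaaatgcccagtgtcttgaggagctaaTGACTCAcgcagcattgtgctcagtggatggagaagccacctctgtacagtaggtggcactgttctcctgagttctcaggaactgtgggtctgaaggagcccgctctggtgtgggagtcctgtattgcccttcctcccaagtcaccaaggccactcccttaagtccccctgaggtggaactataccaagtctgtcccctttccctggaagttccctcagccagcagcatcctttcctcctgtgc
4833407H14Rik: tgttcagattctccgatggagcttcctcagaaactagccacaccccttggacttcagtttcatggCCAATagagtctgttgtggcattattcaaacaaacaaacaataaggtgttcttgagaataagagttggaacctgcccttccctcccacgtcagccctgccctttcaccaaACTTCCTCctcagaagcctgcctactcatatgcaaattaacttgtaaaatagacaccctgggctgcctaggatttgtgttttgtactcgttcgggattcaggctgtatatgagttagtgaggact
AU020206: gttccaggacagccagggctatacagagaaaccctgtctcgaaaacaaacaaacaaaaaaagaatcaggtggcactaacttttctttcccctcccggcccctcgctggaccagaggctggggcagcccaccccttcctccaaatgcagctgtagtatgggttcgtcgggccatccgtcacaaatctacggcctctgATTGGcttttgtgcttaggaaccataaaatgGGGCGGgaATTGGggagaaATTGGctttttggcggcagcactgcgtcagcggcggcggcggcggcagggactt
Gm19510 and Gm34643 each hold an AP-1 match, 4833407H14Rik holds a CCAAT and a PU.1 match, and AU020206 holds 3 CCAAT matches and a GC box. Over all 27025 genes with a promoter in the table, AP-1 matches occur in 7.93% and PU.1 matches in 3.28%. Among the 125 long noncoding promoters these 2 occur in 9.60% and 10.4%. CCAAT boxes occur in 37.9% of all and 36.8% of the long noncoding promoters, GC boxes in 35.9% and 31.2%. For TATA boxes the shares are 14.2% and 9.6%, for NF-kB matches 1.15% and 1.6%, and for C/EBP matches 0.807% and 0.8%. AP-1 matches were in 4 of 25 lowered and 0 of 11 raised genes, PU.1 matches in 2 and 1, CCAAT boxes in 6 and 4, GC boxes in 6 and 3, TATA boxes in 4 and 0, NF-kB matches in 1 and 0, and C/EBP matches in neither. A match shows only that the letters are present.

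The second comparison set each long noncoding RNA beside its nearest protein-coding gene. The neighbour overlapped on the opposite strand in 114 of 245 cases and on the same strand in 6. It lay apart on the same strand in 60, head to head (start sites facing) in 41 and tail to tail in 24. A neighbour that could be tested was present for 223 of the genes, and 165 of these neighbours had the higher FPKM. The 211 distinct neighbours had a median of 15.8 FPKM, and 79 of them (37.4%) were called, 65 lower and 14 higher, where 19.9% of all tested protein-coding genes were called. Of the 185 neighbours with a mean of at least 1 FPKM, 78 (42.2%) were called, against 25.2% of all protein-coding genes that reached 1 FPKM. Those protein-coding genes had a median of only 6.71 FPKM, so the groups differ in level, and coding genes matched for level were not compared. The balance of lower and higher neighbours is given under the deposited scaling alone.

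Across the 223 pairs the log2 fold changes of gene and neighbour had a Pearson correlation of 0.337 and a Spearman correlation of 0.377. These are descriptions, since both genes of a pair come from the same 6 libraries with the same scaling and pairs share neighbours. Where genes overlap, reads of the coding gene may also count for the long noncoding gene, because the libraries do not mark the strand. For 48 long noncoding genes the neighbour overlapped on the opposite strand at 10 or more times the FPKM. Of these 48 genes 10 were called. The correlation was 0.378 for the 108 pairs overlapping on opposite strands, 0.411 for 40 head to head pairs, 0.264 for 50 pairs on the same strand and 0.283 for 20 tail to tail pairs. For 55 pairs more than 10 kb apart it was 0.327. Among 4356 pairs of a protein-coding gene with its nearest protein-coding gene it was 0.213.

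**Figure D3:**
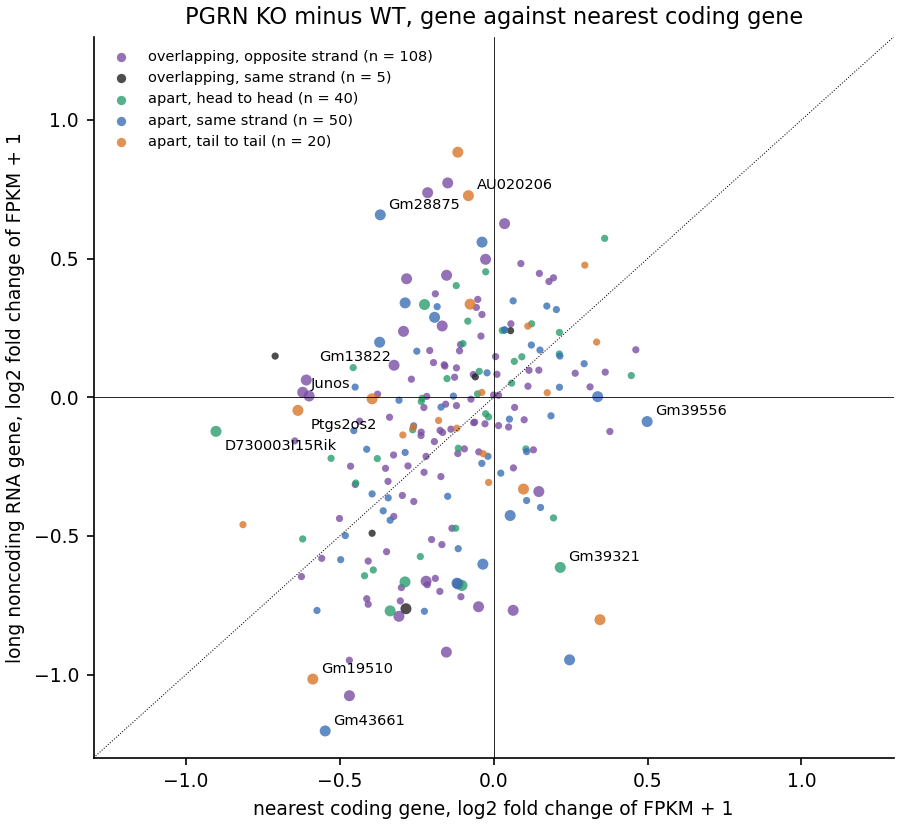
Log2 fold change of FPKM + 1 (PGRN KO minus WT) of each long noncoding RNA gene against that of its nearest coding gene, for 223 pairs coloured by their arrangement. Large points are the 47 pairs whose difference was called, and the dotted line marks equal change. Most lowered genes lie on the left, beside neighbours that were also lower, while points near the horizontal axis on the left are genes such as Junos that did not follow their neighbour.

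All 46 lowered long noncoding genes had a tested neighbour. The neighbour was called lower for 24 of them, called higher for 1 and not called for 21, and its median log2 fold change was -0.292. Of the 162 genes that were not called and had a tested neighbour, the neighbour was called lower for 44 and higher for 11, and of all 8002 protein-coding genes with a mean of at least 1 FPKM 1198 were called lower. Of 15 raised genes with a tested neighbour, the neighbour was called higher for 3, lower for 1 and not called for 11, with a median of -0.0378. Several pairs are described next, picked after their values were seen for the known roles of the neighbours. Gm13411 lies 13897 bases from Il1rn, the gene of the interleukin-1 receptor antagonist, and was at 1.42, 2.32 and 2.68 FPKM for WT and 0.677, 0.798 and 0.983 for PGRN KO (adjusted p = 0.0208). Il1rn, one of the most abundant transcripts at 2165 ± 127 FPKM for WT, was at 1452 ± 37.5 for PGRN KO (adjusted p = 0.0014). Gm34643, near the itaconate-producing enzyme gene Acod1, was at 7.12, 7.67 and 8.98 FPKM for WT and 6.24, 5.27 and 6.29 for PGRN KO (adjusted p = 0.0477). Acod1 fell from 2776 ± 118 to 2190 ± 131 FPKM (adjusted p = 0.0117), and this pair differed by only -0.02 ± 0.09 on the log2 scale.

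Another 4 pairs carry genes of glucose and NAD metabolism or of MAP kinase signalling. Gdap10 overlaps Nampt, the rate-limiting enzyme gene of NAD salvage, on the same strand, and was at 11.3, 10.8 and 13.7 FPKM for WT and 7.0, 5.68 and 7.19 for PGRN KO (adjusted p = 0.00636). Nampt fell less, from 229 ± 9.32 to 188 ± 14 FPKM, and the difference between them was called (-0.48 ± 0.11, adjusted p = 0.0319), though in only 9 of 16 alternative fits and not with a pseudocount of 0.1 (adjusted p = 0.105). Gm12868 and Gm10851 overlap the glucose transporter gene Slc2a1 and the glycolytic regulator gene Pfkfb3 on the opposite strand. Their PGRN KO means were 0.522 and 0.439 times the WT means, beside 0.754 for Slc2a1 and 0.752 for Pfkfb3, and all 4 genes were called lower. The most abundant gene, 4833407H14Rik, lies 66386 bases from Dusp5, a phosphatase gene of the ERK pathway. Its fall to 0.705 times the WT mean was matched by 0.714 for Dusp5, which went from 269, 281 and 304 FPKM to 210, 195 and 205 (adjusted p = 0.00282). Of the exon bases of Gm12868, 25.2% lie in exons of other genes.

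The difference between gene and neighbour was itself tested within each library. It was called for 47 of 223 pairs (21.1%), with the long noncoding gene the lower of the pair in 23 and the higher in 24, and over all 10670 tested pairs of a gene and its nearest coding gene it was called for 16.0%. Of these 47 genes, 30 were themselves called, and 17 were not. With a pseudocount of 0.1 in place of 1 the number fell to 12 and with 0.5 to 35. Without WT replicate 1, 2 or 3 it was 22, 25 or 22, and without PGRN KO replicate 5 or 6 it was 18 or 23, so a single pair should be read with its own values.

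Among the 17 genes that were not called but differed from their neighbour, 4 are described here, picked after their values were seen for the known roles of their neighbours. Ptgs2os2 lies 50816 bases from Ptgs2, the cyclooxygenase-2 gene, and was at 3.04, 3.23 and 3.68 FPKM for WT and 3.18, 3.09 and 3.24 for PGRN KO. Ptgs2 was at 343, 348 and 386 FPKM for WT and 242, 212 and 240 for PGRN KO (adjusted p = 0.00232). The genotypes overlapped in Ptgs2os2 and were apart in Ptgs2, and the difference was 0.59 ± 0.10 on the log2 scale (adjusted p = 0.0095, and 0.107 with a pseudocount of 0.1).

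Junos overlaps Jun, the AP-1 subunit gene, on the opposite strand, with start sites 688 bases apart. Junos was at 3.50, 3.85 and 3.93 FPKM for WT and 3.85, 3.84 and 3.76 for PGRN KO, and Jun at 232, 223 and 203 FPKM for WT and 159, 136 and 132 for PGRN KO (difference 0.64 ± 0.12, adjusted p = 0.0168, and 0.0967 with a pseudocount of 0.1, called in 11 of 16 alternative fits). The intergenic gene Gm12708, 141091 bases from Jun, did fall, from 2.82 ± 0.45 to 1.67 ± 0.192 FPKM (adjusted p = 0.0185). D730003I15Rik, head to head with the stress-induced transcription factor gene Atf3, was at 5.55, 5.22 and 4.22 FPKM for WT and 4.75, 5.09 and 3.71 for PGRN KO, while Atf3 went from 377, 374 and 372 to 207, 192 and 200 FPKM (adjusted p = 0.000105). Their difference was 0.78 ± 0.15 (adjusted p = 0.0144, and 0.0997 with a pseudocount of 0.1). Only 37 bases separate the start sites of Gm13822 and Oasl1, an interferon-induced gene. Gm13822 was at 64.8, 76.1 and 66.2 FPKM for WT and 68.2, 71.0 and 76.9 for PGRN KO, and Oasl1 at 147, 152 and 147 for WT and 93.5, 98.8 and 99.0 for PGRN KO. That difference, 0.67 ± 0.09, was called in all 16 alternative fits of the pairs (adjusted p = 0.00532).

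The largest difference in the other direction was that of Gm39469 from 2010315B03Rik, at -1.19 ± 0.16 (adjusted p = 0.00537). Gm39321, head to head with the sorting receptor gene Sorl1, was at 2.94, 3.83 and 2.85 FPKM for WT and 2.16, 1.47 and 1.62 for PGRN KO, and Sorl1 rose from 38.5 ± 1.42 to 44.9 ± 0.924 FPKM (adjusted p = 0.0192), the one lowered gene whose neighbour was called higher. Gm39556 was at 12.1 ± 0.381 FPKM for WT and 11.4 ± 1.34 for PGRN KO, near Ly6e, an interferon-induced surface protein gene that rose from 130 ± 3.46 to 184 ± 10.1 FPKM (difference -0.59 ± 0.13, adjusted p = 0.0228, and 0.0906 with a pseudocount of 0.1, called in 10 of 16 alternative fits).

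**Figure D4:**
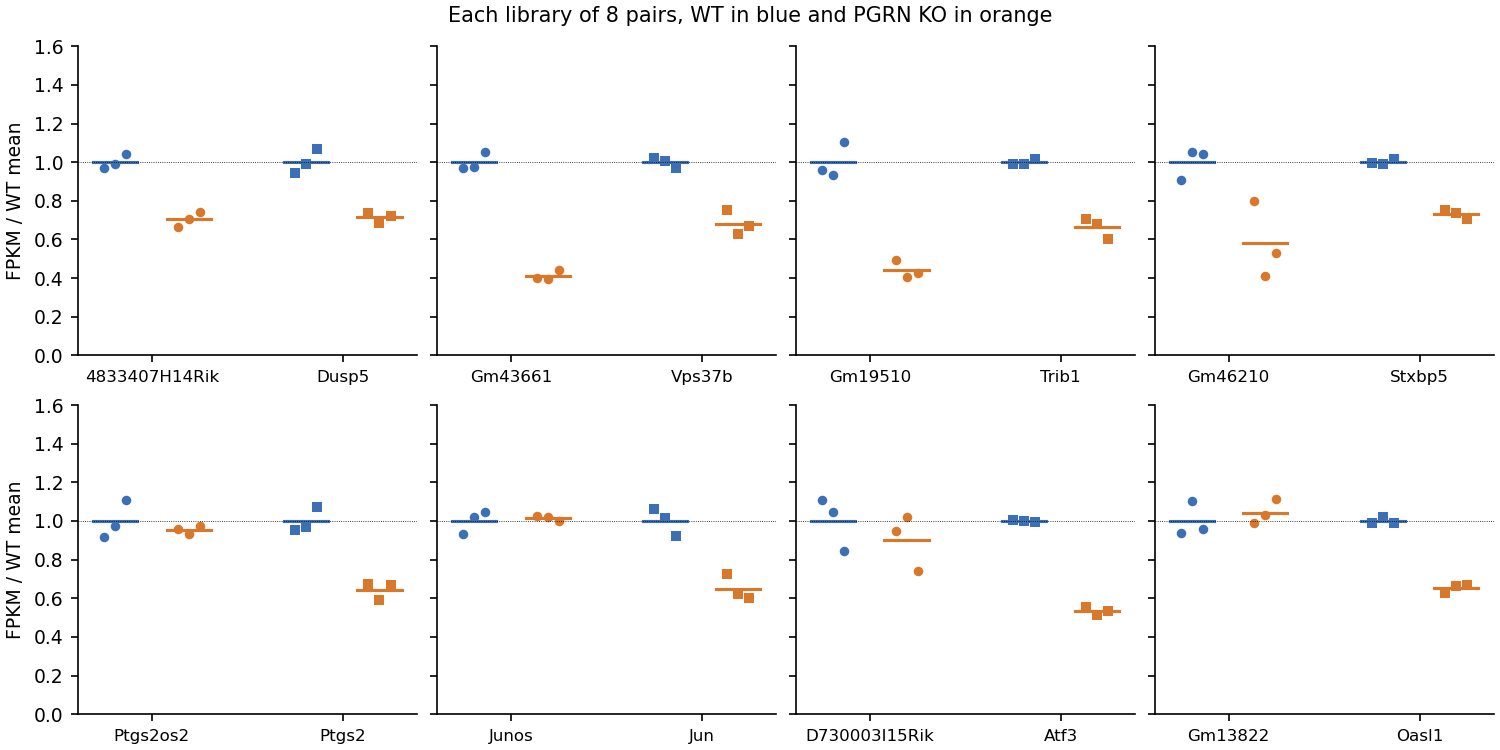
FPKM of each library divided by the WT mean of the same gene, for 8 long noncoding RNA genes (circles) and their nearest coding genes (squares), with WT in blue, PGRN KO in orange and lines at the means. In the upper row both genes of a pair fell. In the lower row the coding gene fell to between 0.534 and 0.654 times the WT mean while the long noncoding gene stayed between 0.904 and 1.04 times.

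A start region can be shared outright. In 24 pairs the start sites faced each other within 1000 bases without overlap of the genes. The median level was 1.61 FPKM for the long noncoding genes and 10.4 FPKM for their partners, and the partner was the more abundant in 19. Of the 24 genes 4 were called, Gm46210, Gm45620 and Gm16001 lower and Gm17586 higher, and 6 partners were called, all lower. Neither count exceeded its background. With a mean of at least 1 FPKM, 25.6% of all genes and 25.2% of protein-coding genes were called. Gm46210 was at 4.39, 5.09 and 5.06 FPKM for WT and 3.88, 2.00 and 2.56 for PGRN KO (adjusted p = 0.0463), and Stxbp5, a regulator of vesicle fusion whose start site is 234 bases away, at 17.6 ± 0.223 and 12.9 ± 0.426 FPKM (adjusted p = 0.00211). Gm45620 was at 3.20 ± 0.259 and 1.74 ± 0.385 FPKM beside Arap1, a GTPase-activating protein gene, at 50.5 ± 0.622 and 38.4 ± 4.66 (adjusted p = 0.014 and 0.0229). Gm16001 was at 4.19 ± 0.393 and 2.50 ± 0.499 FPKM (adjusted p = 0.018), with Ogfod2 33 bases away and not called.

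The exception in direction was Gm17586, at 9.14, 8.12 and 7.97 FPKM for WT and 10.8, 10.2 and 11.5 for PGRN KO (adjusted p = 0.0207). Its partner Mafg, a small Maf protein that pairs with Nrf2 on antioxidant genes, has its start site 168 bases away and was at 91.7, 90.5 and 89.1 FPKM for WT and 84.7, 77.9 and 69.8 for PGRN KO (adjusted p = 0.0736). The difference of this pair was 0.56 ± 0.12 (adjusted p = 0.0243), the only one called among the 24, and it was called in 10 of 16 alternative fits (adjusted p = 0.081 with a pseudocount of 0.1). The start region of Gm46210, which is shared with Stxbp5, is shown as an example (RefSeq, GRCm38.p6, chr10:9901063-9901362, plus strand), with its 2 GC box matches in capitals.
Gm46210: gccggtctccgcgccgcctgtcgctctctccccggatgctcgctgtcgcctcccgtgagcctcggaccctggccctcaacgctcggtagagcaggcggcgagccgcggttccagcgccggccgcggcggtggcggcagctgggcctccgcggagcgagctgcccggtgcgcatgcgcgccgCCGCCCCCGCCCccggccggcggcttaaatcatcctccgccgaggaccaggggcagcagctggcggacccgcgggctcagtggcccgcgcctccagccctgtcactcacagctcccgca
GC boxes occur in 35.9% of all promoters in the table.

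Long noncoding RNAs with known names were examined by list. Many carriers of small nucleolar RNAs are annotated as processed transcripts and so fall outside the choice, but they are given for the pathway. Among 18 such host genes 11 could be tested, and 1 was called. This was Snhg6, which carries the small nucleolar RNA Snord87 and was at 5.34, 6.12 and 4.74 FPKM for WT and 6.94, 9.42 and 10.5 for PGRN KO (adjusted p = 0.0314). The call was lost when any library but PGRN KO replicate 4 was left out. Snhg12 was at 1.02 ± 0.173 and 1.43 ± 0.372 FPKM (adjusted p = 0.222) and Gas5 at 5.43 ± 0.829 and 5.91 ± 0.717 (adjusted p = 0.578). The median log2 fold change of the 11 was 0.152, beside 0.00255 for all tested genes. Of 8 proteins of small nucleolar ribonucleoproteins, such as fibrillarin (Fbl), limma called 0, with 1 at an unadjusted p under 0.05 and 1 called by voom.

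The hosts of miR-155 and miR-142, both with roles in blood cells, were among the long noncoding genes. The mature sequences they carry are shown because the seed, bases 2 to 8 in capitals, sets which messenger RNAs a microRNA pairs with (RefSeq, GRCm38.p6, miR-142 at chr11:87756867-87756925 and miR-155 at chr16:84714143-84714202, plus strand). No 2 of the 4 share a seed.
mmu-miR-155-5p: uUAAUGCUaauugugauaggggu
mmu-miR-155-3p: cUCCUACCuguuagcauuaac
mmu-miR-142a-5p: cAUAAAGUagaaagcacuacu
mmu-miR-142a-3p: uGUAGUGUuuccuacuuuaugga
Mir155hg, the host of miR-155, an inflammation-induced microRNA, was at 13.8, 11.3 and 13.5 FPKM for WT and 9.89, 10.5 and 9.62 for PGRN KO, 0.777 times the WT mean (adjusted p = 0.0347). The call was lost in 8 of 17 alternatives, among them plain totals. Mir142hg, the host of the blood-cell microRNA miR-142, was at 80.5, 64.2 and 64.7 FPKM for WT and 80.6, 86.6 and 61.8 for PGRN KO, and the genotypes overlapped (adjusted p = 0.613). Mir22hg, a processed transcript outside the choice, fell from 87.1 ± 2.51 to 75.2 ± 1.89 FPKM (adjusted p = 0.0173). These were the 2 called of 5 tested microRNA hosts, and voom called 0 of the 5. Mature microRNAs were not measured by these libraries. Of 7 genes of microRNA processing only Ago2, which binds mature microRNAs, was called, falling from 10.4 ± 0.728 to 8.27 ± 0.444 FPKM (adjusted p = 0.0256).

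Of the nuclear body RNAs, Neat1, the scaffold of paraspeckles, was at 41.8, 44.8 and 47.2 FPKM for WT and 65.3, 64.5 and 43.7 for PGRN KO (log2 fold change 0.35 ± 0.15, adjusted p = 0.174). PGRN KO replicates 4 and 5 lay above every WT library and replicate 6 lay within the WT range. By limma 0 of these 2 RNAs were called, with 0 at an unadjusted p under 0.05, and voom called 1. Malat1, of nuclear speckles, was at 26.6 ± 1.45 FPKM for WT and 24.9 ± 4.26 for PGRN KO (adjusted p = 0.584). Because the kit selects polyadenylated RNA, forms of Neat1 or Malat1 without a poly(A) tail would be undercounted. Isoforms were not told apart. Of 9 paraspeckle protein genes, Nono rose from 32.0 ± 0.862 to 37.2 ± 0.899 FPKM (adjusted p = 0.0188) and Nudt21 from 4.89 ± 0.385 to 6.14 ± 0.138 (adjusted p = 0.0296), and 7 were not called. Of 7 genes of nonsense-mediated decay, which removes many noncoding transcripts, only Upf3b was called, at 2.31 ± 0.395 FPKM for WT and 3.62 ± 0.443 for PGRN KO (adjusted p = 0.031).

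Of 11 regulators described in myeloid cells or inflammation 8 could be tested, and Mirt2 was lower and 1700020I14Rik higher. 1700020I14Rik, listed by RefSeq as Oip5os1 and known as Cyrano, which promotes decay of miR-7, was at 7.71, 7.72 and 7.91 FPKM for WT and 8.85, 8.94 and 9.46 for PGRN KO (adjusted p = 0.0359). Its call was lost whenever 1 library was left out. Gm14005, listed by RefSeq as Morrbid, an RNA known to restrain the death gene Bcl2l11 and to prolong the life of neutrophils, was at 8.29, 7.62 and 7.29 FPKM for WT and 8.01, 7.86 and 7.21 for PGRN KO (adjusted p = 0.967). Bcl2l11 itself, 15772 bases away, fell from 58.7, 61.2 and 64.0 FPKM to 49.5, 45.0 and 44.8 (adjusted p = 0.00574), and the difference between them was 0.39 ± 0.11 (adjusted p = 0.048, and 0.139 with a pseudocount of 0.1).

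Tug1 was at 15.8 ± 1.02 FPKM for WT and 13.8 ± 0.549 for PGRN KO (adjusted p = 0.0814). 2900097C17Rik, known as Norad, a decoy for Pumilio proteins, shares 39.5% of its stretches of 50 bases with other loci and was at 22.0 ± 0.584 and 20.7 ± 1.07 FPKM (adjusted p = 0.332). Mirt1 was at 8.32 ± 0.883 and 7.05 ± 0.897 FPKM (adjusted p = 0.224). Pvt1, Lncpint and Ttc39aos1 were too low to be tested. Of 5 imprinted transcripts H19 was at 0 in every library and 1 could be tested, Peg13 (adjusted p = 0.246). Of 3 relatives of the ribosomal RNA repeat Gm42418 and AY036118 were listed at 0, and Gm26917 was at 7.03 ± 0.689 FPKM for WT and 7.86 ± 1.71 for PGRN KO (adjusted p = 0.574).

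**Figure D5:**
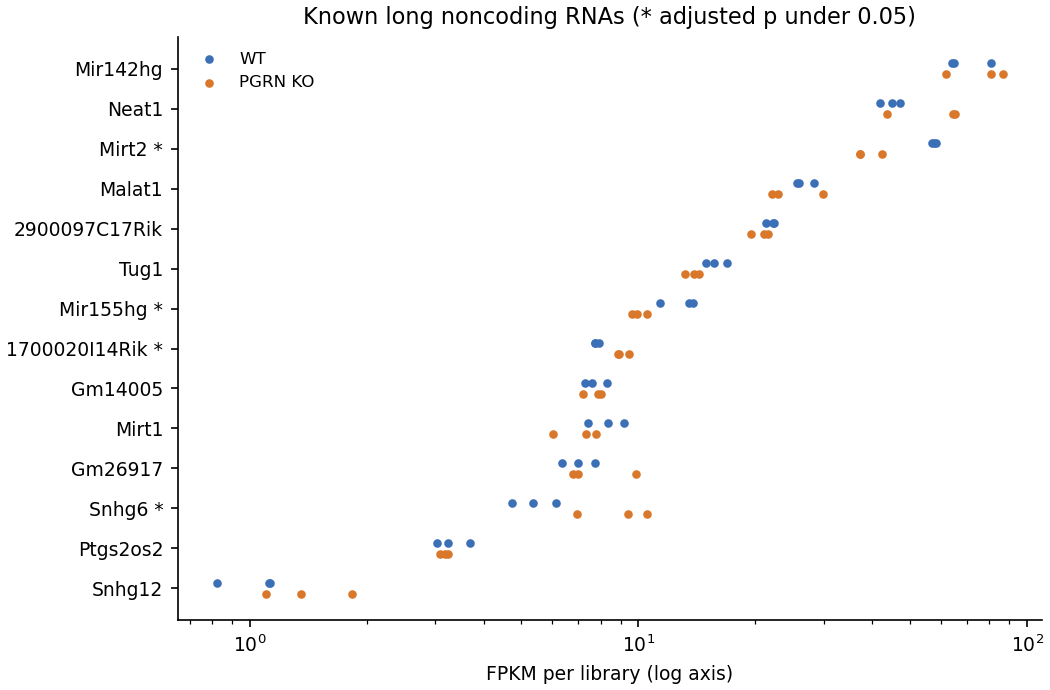
FPKM of each library on a log axis for the 14 named long noncoding RNAs of the lists, with WT in blue and PGRN KO in orange. Asterisks mark the 4 that were called, Mirt2 and Mir155hg lower and 1700020I14Rik and Snhg6 higher. In Neat1 a single PGRN KO library lies among the WT libraries.

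Another 5 called genes are named after their values were seen, for the known roles of their neighbours. F730016J06Rik was at 8.40, 9.13 and 8.82 FPKM for WT and 10.9, 10.3 and 10.3 for PGRN KO (adjusted p = 0.0283), 10592 bases from Fcnb, a ficolin gene of immature granulocytes that rose from 138 ± 3.21 to 160 ± 6.19 FPKM. 9230111E07Rik, 91635 bases from the granulocyte transcription factor gene Cebpb, rose from 5.22 ± 0.331 to 6.89 ± 0.828 FPKM (adjusted p = 0.0448), with Cebpb at 1578 ± 75.6 and 1301 ± 193 (adjusted p = 0.11). Gm28809, antisense to the tetraspanin gene Cd9, fell from 12.2 ± 0.721 to 7.20 ± 0.609 FPKM (adjusted p = 0.00209), and 9330175E14Rik, which overlaps the MHC class I regulator gene Nlrc5, from 1.94 ± 0.0343 to 1.48 ± 0.0771 (adjusted p = 0.0365). Gm37787 overlaps Slamf7 on the opposite strand with 72.3% of its exon bases in exons of other genes, so its fall (ratio 0.453) cannot be told apart from that of Slamf7 (0.639).

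At the threshold of the choice, the genes just above a mean of 1 FPKM were Gm37768, Gm14320 and Gm35853, and the last just below it were Gm17116, Gm40787 and Gm48102. None of these 6 was called. The mean was under 1 FPKM for WT for 10 of the 245 genes and under 1 for PGRN KO for 18, of which 3 and 8 were called, a count that the way of choosing favours. Genes with under 100 fragments over the 6 libraries numbered 38, of which 8 were called. The median was 502 fragments for the called and 265 for the other genes. RefSeq matched 153 of the 245 genes and lists 146 of these as long noncoding and 6 as protein coding, among them Gm39469, Gm26637 and Tmem250-ps. It lists 1, Gm10076, as a pseudogene.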

How the data were processed

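RNA from 6 cultures of bone marrow neutrophils, 3 WT and 3 PGRN KO, was sequenced after 6 h with live Candida albicans. The authors deposited FPKM values for 54532 genes, made from aligned reads and scaled by gene length and library size. Their paper names HISAT and HTSeq, while the submitters' processing notes name HISAT2 2.0.5, featureCounts 1.5.0-p3 and DESeq2 1.20.0 on mm10 (GRCm38). No strand setting was found. The long noncoding genes, the gene lists and the comparisons were chosen with earlier results of these data known.

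FPKM times gene length gave whole fragments within 0.05 for every value above 0, and these supplied depth (17087344 to 18821091 per library) and a voom alternative. Such depth covers counting error only. Genotypes were compared with limma 3.58.1 in R 4.3.3 (eBayes with trend) on log2(FPKM + 1), for 14807 genes whose mean reached 0.1 FPKM, two-sided, with Benjamini-Hochberg adjustment over all of them. Every adjusted p in the text is from limma. An exact permutation test of 3 against 3 cannot go below 0.10 and was not used. On simulated data with 200 of 14807 genes changed, the fit recovered 131, including 111 of 113 with a mean of at least 1, and made 9 false calls. These counts are for all 14807 genes together. Recovery by size of difference was not tested, so they do not give the recovery of moderate differences like most of those called here. Recovery among the long noncoding genes alone was not tested either. Their median coefficient of variation between replicates was 15.6%, against 6.58% for protein-coding genes with a mean of at least 1.

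The nearest coding gene was the protein-coding gene with the smallest gap to the gene body. The difference of gene and neighbour was computed in each library and tested with limma over 10670 pairs. All 245 genes were in GENCODE M21 and 238 had the same position there. Exon overlap, and stretches of 50 bases shared with other transcripts, came from GENCODE M21 as well. Promoters and microRNAs were taken from RefSeq by symbol or synonym, without those on chromosome 18, of which none is printed.

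Named genes were Grn, the 10 highest and 10 lowest called genes without overlap between genotypes, the 10 most abundant, members of the lists, genes within 10 Mb of Grn, the nearest coding genes and those at the threshold. Other names were added after values were seen. The alternatives were other pseudocounts, filters, scalings and variance models, voom, autosomes alone, each library left out, other limits and classes for the genes, and 2 other definitions of the neighbour. Leaving out genes with exon overlap, and asking for a mean of 1 in both genotypes, were added after seeing the data. Python 3.11.15, numpy 2.4.6, pandas 2.3.3 and scipy 1.17.1 were used.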

Additional observations from a re-analysis of the deposited data

How the results depend on the processing

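No paired analysis was possible because the genotypes share no replicate numbers. Of the 64 called genes none changed sign in the alternatives, and 35 to 64 of the same genes were called. In all 64 the genotypes did not overlap, so only settings that rescale the libraries could have changed a sign. Testing all genes without a filter on low values gave 40 called genes, 10 higher and 30 lower. Plain totals of fragments gave 29 higher, and the median log2 fold change of the long noncoding genes then became 0.0209. With voom, which used the same totals, it was 0.0235. Among the 85 genes that overlap no other gene, 25 passed (10 higher, 15 lower), and the median was -0.00352, with 30 called neighbours and 18 called pairs. Among the 147 without exon overlap it was 38 called, 11 higher and 27 lower, with 46 called neighbours and 28 called pairs. With a mean of at least 2 FPKM asked for, the median was -0.112, the called neighbours 47 and the correlation of the pairs 0.267. With 0.5 FPKM that correlation was 0.283, and with the nearest coding gene that does not overlap 0.244. A pseudocount of 0.1 left 12 called pairs. The sets without overlap and with at least 2 FPKM hold fewer genes by construction, and the cause of the other changes was not tested.

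With each library left out in turn, 35 to 47 genes were called, 5 to 13 higher and 28 to 34 lower, with 39 to 73 called neighbours and 18 to 34 called pairs. The median and the correlation kept their sign. The lowest counts came without PGRN KO replicate 5 for called genes (35), genes lower (28) and pairs (18), and without WT replicate 2 for genes higher (5) and neighbours (39). Of the 245 genes, 38 rest on under 100 fragments over the 6 libraries.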

Other observations

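Below the level asked for, 766 further lincRNA and antisense genes had a mean of 0.1 to under 1 FPKM, and 35 of them (4.57%) were called, 13 higher and 22 lower in PGRN KO, near the 5.04% (280 of 5558) of all tested genes at that level. The coefficient of variation between replicates was above 50% in 8 of the 245 genes, among them Gm10076, 1810044D09Rik and Gm31450. Rpl41, which shares sequence with Gm10076, was at 169, 190 and 189 FPKM for WT and 250, 259 and 269 for PGRN KO. Transcript stretches of 50 bases were shared with other loci by 49 of the 245 genes, and made up at least 50% of the transcripts in 5.

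Hosted small RNAs were found by position in further long noncoding genes. E130102H24Rik holds Mir101a, 6720427I07Rik holds Mirlet7d, Gm35853 holds Mir1941, and Snhg12 holds Snora16a, Snora44, Snora61 and Snord99.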
